A study of Mus musculus with 10 samples.

Results

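The genes described here are 7 chemokines that intestinal epithelium can make, namely Ccl6, Ccl9, Ccl20, Ccl25, Ccl28, Cxcl16 and Cx3cl1, among 22180 genes measured. They were taken by gene symbol from the platform annotation, with the probe set of highest mean where a gene has several. All 7 were found, each with 1 probe set. Expression was measured as log2 intensity on 10 Affymetrix MoGene ST arrays of sorted mouse intestinal cells, from animals labelled as 3 to 6 months old. The 4 Flattop arrays held crypt cells labelled as expressing Flattop, from FltpT2AiCre mice crossed with Gt(ROSA)26mTmG on a mixed background of C57BL/6J, CD1 and 129/SvJ. In those animals a Cre recombinase at the Flattop locus switches a membrane colour reporter, which then also marks the descendants of the cells in which it acted. The 6 Lgr5-high arrays held intestinal stem cells with high Lgr5 and GFP, from Lgr5-EGFP-IRES-creERT2 mice on C57BL/6J. Group, genotype and strain coincide and cannot be told apart. The question the comparison addresses here is how the chemokine genes of crypt cells with a Flattop history compare with those of Lgr5-high stem cells.

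Chemokines are small proteins that direct the movement of leukocytes by acting on receptors coupled to G proteins. Gut epithelium uses them to place immune cells along the mucosa. Ccl25 draws lymphocytes to the small intestine through Ccr9, Ccl28 attracts antibody-secreting cells through Ccr10 and also binds Ccr3, and Ccl20 acts on Ccr6 and is typical of the epithelium over lymphoid follicles. Cxcl16 and Cx3cl1 are made as membrane proteins on a mucin-like stalk, bind Cxcr6 and Cx3cr1, and can be released by the proteases Adam10 and Adam17. Ccl6 and Ccl9 are rodent CC chemokines known as ligands of Ccr1, and are also made by myeloid cells.

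The array medians lay between 4.56 and 4.77, and the median of all values was 4.70. Detection calls were not used here, so a value near that median may be little above background. The epithelial adhesion gene Epcam was at 10.84 ± 0.06 in Flattop and 10.83 ± 0.12 in Lgr5-high arrays (SD, n = 4 and 6). Of 6 pan-epithelial genes, Epcam among them, 1 passed as higher in limma, the keratin Krt20 (4.48), and 0 as lower. The mean of the 6 genes was 9.60 to 10.7 on the Flattop and 9.26 to 9.69 on the Lgr5-high arrays. The genes that name the groups did not pass the test, neither Cfap126, which encodes Flattop (0.43, SE 0.31, limma adjusted p = 0.678), nor Lgr5 (-1.10, SE 0.51, limma adjusted p = 0.533). Over all probe sets, the array most like Lgr5-high replicate 1 was Flattop replicate 2 (r = 0.931). The labels do not say whether each replicate was a separate animal, and the p-values therefore cover only the spread between these arrays, some of which may be technical.

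Ccl6 rose in the Flattop arrays and was the 1 chemokine of the 7 to pass the test, while 0 passed as lower. Over all genes, 0.902% passed as higher and 0.0135% as lower at the same adjusted p of 0.05 in limma. Ccl9 and Cx3cl1 had positive differences of 1.23 and 0.50 that did not pass, and the other 4 members lay within 0.15 of 0. At an unadjusted p under 0.05, 3 members were higher (Ccl6, Ccl9 and Cx3cl1) and 0 lower, against 1326 higher and 843 lower of all genes. The median difference of the members was 0.12, against -0.06 over all genes. The groups did not overlap for 1 member, Ccl6, with Flattop higher, and for 0 members with Flattop lower, where the background was 2.01% and 0.974% of genes.

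**Figure D1:**
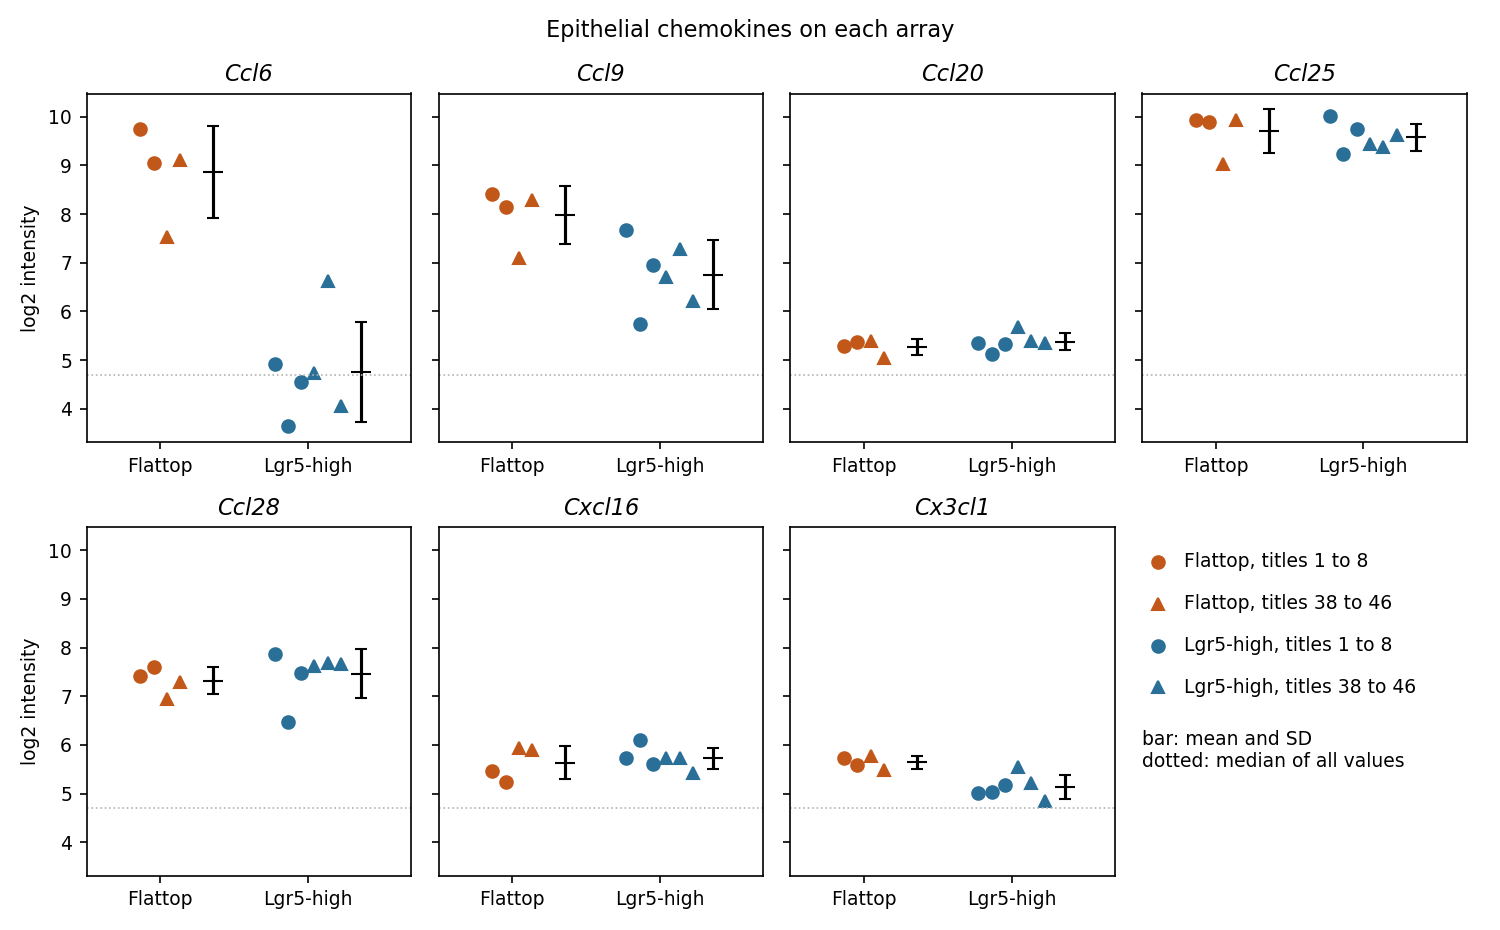
Log2 intensity of each of the 7 chemokines on every array, with the mean and SD of each group (4 Flattop, 6 Lgr5-high arrays); circles are titles 1 to 8, triangles titles 38 to 46, and the dotted line is the median of all values (4.70). Only for Ccl6 do all Flattop arrays (7.52 to 9.74) lie above all Lgr5-high arrays (3.64 to 6.63).

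Ccl6 read 9.74, 9.06, 7.52 and 9.12 on Flattop arrays 1 to 4, against 4.93, 3.64, 4.54, 4.75, 6.63 and 4.06 on Lgr5-high arrays 1 to 6. The lowest Flattop array, replicate 3, lay above the highest Lgr5-high array, replicate 5, and the groups did not overlap. The means were 8.86 ± 0.94 on the Flattop and 4.76 ± 1.03 on the Lgr5-high arrays (SD, n = 4 and 6). The difference of 4.10 (SE 0.57, limma adjusted p = 0.00564) corresponds to a 17.2-fold higher intensity, with a 95% interval of 7.22 to 40.8. The Lgr5-high mean was close to the median of all values, and 3 of the 6 Lgr5-high arrays were below it, so the size of this fold is uncertain on that side. In these bulk samples a larger share of cells that express a gene and more of its RNA per cell cannot be told apart.

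The difference of Ccl6 was 3.81 to 4.55 when each array was left out in turn, and passed each time (limma adjusted p 0.00139 to 0.0290). It was 4.14 without Lgr5-high replicate 1, the array that resembled a Flattop array most. Without Flattop replicate 3 and Lgr5-high replicate 5 together, a choice made after seeing the data, it was 4.92. Sample titles carry numbers from 1 to 8 or from 38 to 46, and the labels do not say whether these mark batches. Within titles 1 to 8 Ccl6 averaged 9.40 in Flattop and 4.37 in Lgr5-high arrays, a difference of 5.03 (limma adjusted p = 0.0188). Within titles 38 to 46 it averaged 8.32 in Flattop and 5.15 in Lgr5-high arrays, a difference of 3.17 that did not pass (limma adjusted p = 0.341). The group by title range interaction was -1.86 and did not pass either (limma adjusted p = 0.717), and 0.00902% of all genes passed that interaction.

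The genes whose pattern over the 10 arrays was nearest to that of Ccl6 were Clps, Mall and Enpep. Likeness was measured as the root mean square difference of log2 values after each gene was centred on its own mean, which is 0 for an identical pattern. It was 0.58 for the pancreatic lipase cofactor colipase (Clps), 0.58 for Mall, a membrane raft protein of the MAL family, and 0.59 for the brush border aminopeptidase Enpep. Clps averaged 11.34 in Flattop and 7.62 in Lgr5-high arrays, Mall 10.21 and 6.26, and Enpep 8.37 and 4.55. The measure includes the step between the groups, which was 3.72 for Clps, 3.95 for Mall and 3.82 for Enpep, against 4.10 for Ccl6. Likeness within the groups was not measured apart from that step. Ccl6 was the 1 member whose SD over the 10 arrays reached 1, the minimum set for this search.

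Ccl9 lies next to Ccl6 on chromosome 11 in the RefSeq annotation, inside a row of CC chemokine genes that runs Ccl5, Ccl9, Ccl6, Ccl3. It read 8.41, 8.15, 7.11 and 8.29 on Flattop arrays 1 to 4, against 7.67, 5.74, 6.95, 6.70, 7.28 and 6.21 on Lgr5-high arrays 1 to 6. Of the Flattop arrays 3 lay above every Lgr5-high array, and replicate 3 lay within the Lgr5-high range. The means were 7.99 ± 0.60 on the Flattop and 6.76 ± 0.70 on the Lgr5-high arrays (SD, n = 4 and 6). The difference of 1.23 (SE 0.38, 95% interval 0.39 to 2.07) did not pass over all genes (unadjusted p = 0.00848, limma adjusted p = 0.266). It was 1.52 without Flattop replicate 3 and 1.03 without Lgr5-high replicate 2, and did not pass without either.

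Ccl6 and its neighbour Ccl9 can be set side by side within each array. Within an array, Ccl6 minus Ccl9 was 0.87 ± 0.38 in Flattop (SD, n = 4, 0.42 to 1.34) and -2.002 ± 0.720 on Lgr5-high arrays (SD, n = 6, -2.74 to -0.65). The 2 ranges did not overlap, and the gap differed by 2.87 between the groups. This pair was chosen after its values were seen, so the gap is a description with no test, and its Lgr5-high side rests on Ccl6 values near the median of all values. The gap compares changes between arrays and not amounts of the RNAs.

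The promoter windows of Ccl6 and Ccl9 are shown because these neighbours, read from the same strand, had differences of 4.10 and 1.23, and that of Ccl20 for the letters it shares with Ccl9. Each covers 250 bases before to 50 bases after the annotated start, 5′ to 3′, from RefSeq on build GRCm38.p6, and 6 of the 7 members matched a window.
Ccl6, chr11:83593038-83593337, minus strand: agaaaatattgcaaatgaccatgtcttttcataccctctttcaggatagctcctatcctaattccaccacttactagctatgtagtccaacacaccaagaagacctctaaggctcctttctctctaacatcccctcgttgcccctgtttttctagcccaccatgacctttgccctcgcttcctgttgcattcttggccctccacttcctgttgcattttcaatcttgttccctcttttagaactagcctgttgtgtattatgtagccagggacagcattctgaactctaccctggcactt
Ccl9, chr11:83578587-83578886, minus strand: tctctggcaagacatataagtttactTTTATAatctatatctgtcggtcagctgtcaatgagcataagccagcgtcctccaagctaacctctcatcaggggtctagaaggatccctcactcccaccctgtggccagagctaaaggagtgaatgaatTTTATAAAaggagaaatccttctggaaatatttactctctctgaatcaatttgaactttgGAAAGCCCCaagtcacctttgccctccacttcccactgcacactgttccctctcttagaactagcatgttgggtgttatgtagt
Ccl20, chr1:83116516-83116815, plus strand: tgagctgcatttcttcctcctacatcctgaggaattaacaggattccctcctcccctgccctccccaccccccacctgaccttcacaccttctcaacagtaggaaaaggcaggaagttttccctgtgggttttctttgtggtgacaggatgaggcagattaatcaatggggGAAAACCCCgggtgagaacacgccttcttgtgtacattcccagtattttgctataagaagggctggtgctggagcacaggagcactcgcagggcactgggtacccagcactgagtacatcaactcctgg
Capitals mark matches, on either strand, to any of 5 motifs. The TATA box was searched as TATAAA and was found in 13.6% of 32817 promoter windows. Part of an NF-kB site was searched as GGGNNTTTC, found in 4.36%, and STAT sites as TTCNNNGAA, found in 8.29%. Sites of CDX factors were searched as TTTATNG, found in 10.9%. Sites of GATA factors were searched as AGATAA, found in 11.2%. No match to any of them lay in the Ccl6 window. The Ccl9 window held TATAAA starting at bases 27 and 157 on the opposite strand and at base 159 on the gene's strand, where the last 2 overlap. It also held GGGNNTTTC on the opposite strand from base 217, and the Ccl20 window held the same motif on the opposite strand from base 172. Of the windows not shown, that of Cx3cl1 and 1 of the 2 windows of Ccl25 held TATAAA, in Ccl25 overlapping a match to TTTATNG, and that of Ccl28 held no match. In a global alignment, 166 of 347 columns (47.8%) were identical between the Ccl6 and Ccl9 windows. A match is a description of letters and not a binding site.

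Ccl25, the small intestinal homing chemokine, was bright on every array and its groups overlapped. It read 9.94, 9.90, 9.02 and 9.94 on Flattop arrays 1 to 4, against 10.02, 9.25, 9.75, 9.44, 9.38 and 9.64 on Lgr5-high arrays 1 to 6. Flattop replicate 3 was below every other array, and the other 3 Flattop arrays lay within the Lgr5-high range. The means were 9.70 ± 0.45 on the Flattop and 9.58 ± 0.28 on the Lgr5-high arrays (SD, n = 4 and 6), a difference of 0.12 with a 95% interval of -0.36 to 0.60 (limma adjusted p = 0.871). It was 0.35 without Flattop replicate 3.

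Ccl28, which serves antibody-secreting cells, also had overlapping groups. It read 7.43, 7.60, 6.94 and 7.29 on Flattop arrays 1 to 4, against 7.87, 6.47, 7.47, 7.63, 7.68 and 7.67 on Lgr5-high arrays 1 to 6. Lgr5-high replicate 2 was the lowest of all 10 arrays and the other 5 Lgr5-high arrays lay between 7.47 and 7.87. The means were 7.32 ± 0.28 on the Flattop and 7.46 ± 0.50 on the Lgr5-high arrays (SD, n = 4 and 6), a difference of -0.15 with a 95% interval of -0.72 to 0.42 (limma adjusted p = 0.869). Within titles 1 to 8 the difference was 0.24 and within titles 38 to 46 it was -0.54, and neither passed.

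Ccl20, the Ccr6 ligand of follicle-associated epithelium, was dim in both groups. It read 5.28, 5.37, 5.39 and 5.05 on Flattop arrays 1 to 4, against 5.36, 5.14, 5.34, 5.68, 5.39 and 5.36 on Lgr5-high arrays 1 to 6. The groups overlapped, with means of 5.27 ± 0.16 on the Flattop and 5.38 ± 0.17 on the Lgr5-high arrays (SD, n = 4 and 6). The difference of -0.11 had a 95% interval of -0.39 to 0.18 (limma adjusted p = 0.805). Genes of M cells and follicle-associated epithelium were measured beside it, and 0 of 7 passed in limma (at an unadjusted p under 0.05, 1 was higher and 1 lower). Of all 22180 genes, 1326 were higher and 843 lower at that unadjusted p. The M cell receptor Gp2 averaged 3.80 in Flattop and 3.81 in Lgr5-high arrays. Of 11 measured genes of cytokine receptors and NF-kB, pathways known to act on Ccl20, 0 passed in limma (at an unadjusted p under 0.05, 1 was higher and 0 lower), with a median difference of 0.16. The smallest p-values among them were those of the NF-kB inhibitor Tnfaip3 (0.75, SE 0.27, limma adjusted p = 0.366) and the NF-kB subunit Nfkb2 (0.43, SE 0.25, limma adjusted p = 0.620).

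The membrane-anchored chemokine Cxcl16 read 5.47, 5.24, 5.95 and 5.90 on Flattop arrays 1 to 4, against 5.74, 6.11, 5.61, 5.73, 5.73 and 5.43 on Lgr5-high arrays 1 to 6. The groups overlapped, with means of 5.64 ± 0.34 on the Flattop and 5.72 ± 0.22 on the Lgr5-high arrays (SD, n = 4 and 6). The difference was -0.08 with a 95% interval of -0.48 to 0.31 (limma adjusted p = 0.892). The sign differed between title ranges, at -0.46 within titles 1 to 8 and 0.29 within titles 38 to 46. That interaction of 0.76 did not pass (unadjusted p = 0.0263, limma adjusted p = 0.625).

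Cx3cl1, known as fractalkine, was slightly higher on most Flattop arrays. It read 5.73, 5.59, 5.76 and 5.48 on Flattop arrays 1 to 4, against 5.02, 5.04, 5.17, 5.55, 5.21 and 4.84 on Lgr5-high arrays 1 to 6. Lgr5-high replicate 4 lay above Flattop replicate 4, and no other pair of arrays crossed. The means were 5.64 ± 0.13 on the Flattop and 5.14 ± 0.24 on the Lgr5-high arrays (SD, n = 4 and 6). The difference of 0.50 (SE 0.15, 95% interval 0.18 to 0.83) did not pass over all genes (unadjusted p = 0.00575, limma adjusted p = 0.225). The Lgr5-high values, down to 4.84, were dim and not far from the median of all values, so the size of this difference is uncertain. Titles 1 to 8 alone gave 0.58 for Cx3cl1, and titles 38 to 46 alone gave 0.42. The sheddases Adam10 (0.49, SE 0.36, limma adjusted p = 0.678) and Adam17 (0.02, SE 0.17, limma adjusted p = 0.979) did not pass.

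Of the 7 receptors known for these ligands, Cxcr6 rose and 0 fell, against 0.902% higher and 0.0135% lower of all genes. Cxcr6, which binds Cxcl16 and is carried by tissue lymphocytes, read 5.597, 6.01, 6.31 and 7.62 on Flattop arrays 1 to 4, against 4.24, 3.76, 4.40, 5.19, 4.22 and 4.20 on Lgr5-high arrays 1 to 6. The groups did not overlap, and the difference was 2.05 (SE 0.37, limma adjusted p = 0.0319), a 4.13-fold higher intensity. It missed the threshold when Flattop replicates 2 or 3, or Lgr5-high replicates 1, 2, 3, 5 or 6, were left out singly (limma adjusted p 0.0667 to 0.0750), with all probe sets in the adjustment (limma adjusted p = 0.0706) and within either title range (limma adjusted p = 0.129 and 0.206). The Lgr5-high mean of 4.33 and 5 of the 6 Lgr5-high arrays lay under the median of all values, so the size of this fold is uncertain.

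Ccr9, the Ccl25 receptor of gut lymphocytes, averaged 5.40 ± 0.47 on the Flattop and 4.82 ± 0.23 on the Lgr5-high arrays (SD, n = 4 and 6), with 0.58 for the difference (limma adjusted p = 0.381). Cx3cr1, the fractalkine receptor of mononuclear phagocytes, averaged 6.42 ± 0.40 on the Flattop and 6.96 ± 0.23 on the Lgr5-high arrays (SD, n = 4 and 6), with -0.55 for the difference (limma adjusted p = 0.348). Neither passed, although their unadjusted p-values in limma were 0.0202 and 0.0163. The Lgr5-high mean of Ccr9 was close to the median of all values. Ccr1, the receptor of Ccl6 and Ccl9, was dim at 3.62 in Flattop and 3.63 in Lgr5-high arrays. Ccr3, Ccr6 and Ccr10 averaged 2.99, 3.98 and 4.24 in Flattop and 3.23, 4.22 and 4.54 in Lgr5-high arrays, all under the median of all values, and did not pass. The median difference of the 7 receptors was -0.24, against -0.06 over all genes.

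**Figure D2:**
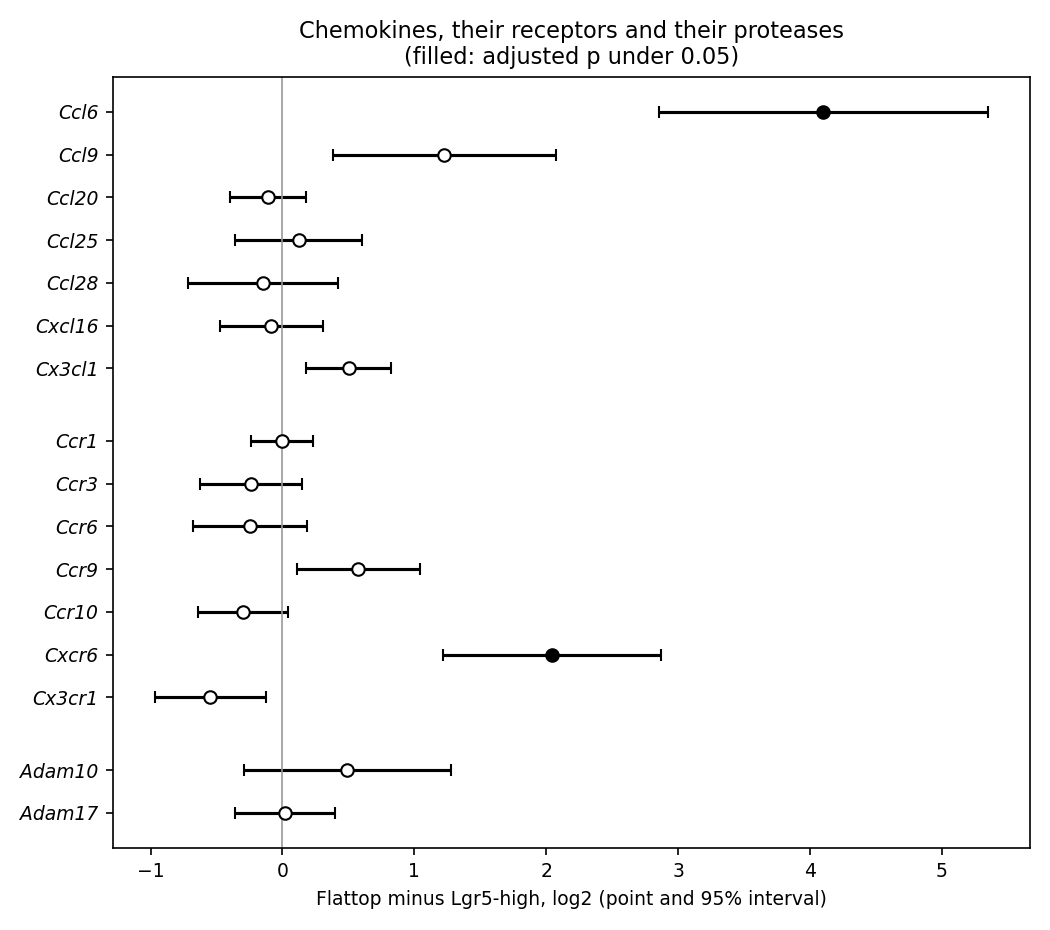
Difference of log2 intensity, Flattop minus Lgr5-high, with its 95% interval for the 7 chemokines, their 7 receptors and 2 proteases; filled points passed an adjusted p of 0.05 in limma. Ccl6 (4.10) and Cxcr6 (2.05) are the filled points, and the intervals of Ccl20, Ccl25, Ccl28 and Cxcl16 include 0.

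The other chemokine ligands give the setting of these changes. Of 28 measured ligands outside the 7, 2 rose and 0 fell in limma, against 0.902% and 0.0135% of all genes. At an unadjusted p under 0.05, 3 of them were higher and 2 lower, against 1326 and 843 of all 22180 genes. The median difference of the 28 ligands was -0.16. Those that rose were Ccl5 and Xcl1, both products of cytotoxic lymphocytes. Ccl5 averaged 12.76 ± 0.72 on the Flattop and 5.77 ± 0.25 on the Lgr5-high arrays (SD, n = 4 and 6), and Xcl1 10.30 ± 1.14 and 4.87 ± 0.32. Ccl3, the neighbour of Ccl6 on its other side, read 5.598, 7.04, 8.47 and 5.26 on Flattop arrays 1 to 4 and between 4.28 and 4.69 on the Lgr5-high arrays. Its groups did not overlap, yet the difference of 2.05 (SE 0.52) did not pass (limma adjusted p = 0.134).

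**Figure D3:**
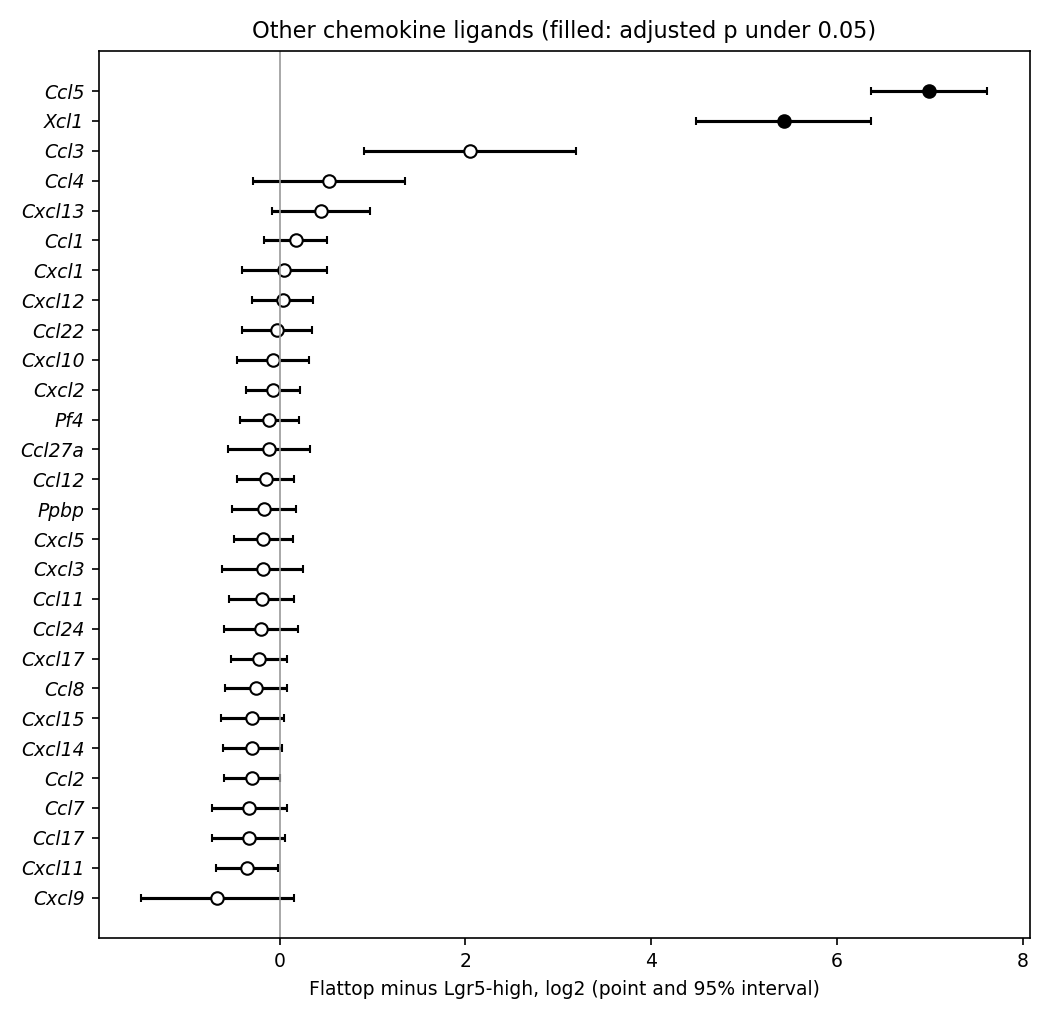
Difference of log2 intensity, Flattop minus Lgr5-high, with its 95% interval for 28 chemokine ligands outside the 7 members; filled points passed an adjusted p of 0.05 in limma. Ccl5 (6.99) and Xcl1 (5.43) are filled, Ccl3 follows at 2.05 and most of the others lie close to 0.

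Ccl6 and Ccl9 ordered the 4 Flattop arrays alike, with replicate 1 highest, then 4, 2 and 3, while their neighbour Ccl3 ordered them differently. The order was not particular to these neighbours, since Ccl25 on chromosome 8 had it too (9.944, 9.938, 9.901 and 9.024). Among the Lgr5-high arrays Ccl6 was highest on replicate 5 and Ccl9 on replicate 1, and both were lowest on replicate 2. How many of all genes share the Flattop order was not counted. Flattop replicate 3 was the lowest for Ccl6 and Ccl9 (7.52 and 7.11) and the highest for Ccl3 and Ccl5 (8.47 and 13.57). The genes beside the other members were also read from the annotation. Ccl17 (-0.33) and Ccl22 (-0.03), which flank Cx3cl1, and Elavl1 (-0.06) and Cers4 (0.03), which flank Ccl25, did not pass. Nor did Med11 (0.53) and Zmynd15 (-0.05) beside Cxcl16, Krtap28-13 (-0.14) and Daw1 (-0.26) beside Ccl20, or Hmgcs1 (0.75) beside Ccl28.

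Among the replicates of a group, several members were low on the same arrays. Flattop replicate 3 was the lowest of its group for 4 of the 7 members, at -1.34 for Ccl6, -0.88 for Ccl9, -0.68 for Ccl25 and -0.37 for Ccl28 relative to the group mean. Lgr5-high replicate 2 was the lowest of its group for 5 members, at -1.12 for Ccl6, -1.01 for Ccl9, -0.33 for Ccl25, -0.99 for Ccl28 and -0.24 for Ccl20. Cxcl16 was the highest of its group on both of these arrays. Over all probe sets, these arrays had the highest medians of their groups. They were also the least like any other array, with best correlations of 0.884 for Flattop replicate 3 and 0.879 for Lgr5-high replicate 2. How many of all genes were lowest on them was not counted, so the pattern may not be particular to the members. Ccl6 stood 1.88 above its group mean on Lgr5-high replicate 5, where Ccl9 was 0.52 above.

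**Figure D4:**
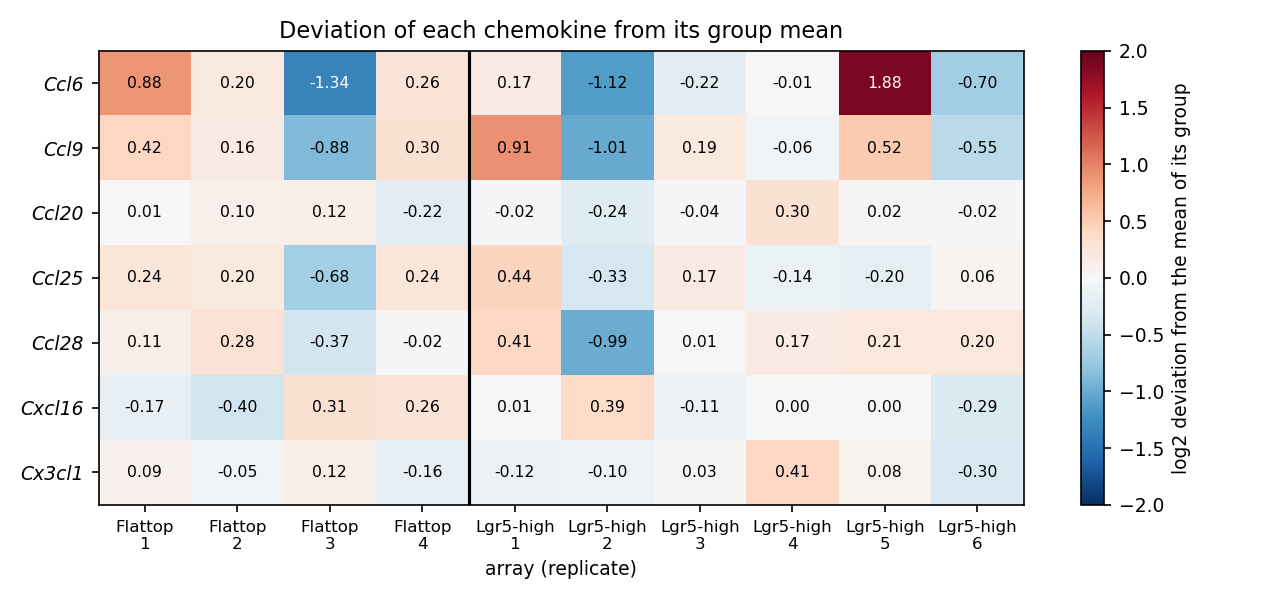
Deviation of each chemokine's log2 intensity from the mean of its own group, for the 4 Flattop and 6 Lgr5-high arrays (columns, parted by the line) and 7 chemokines (rows). Ccl6, Ccl9, Ccl25 and Ccl28 are all below their group means on Flattop replicate 3 and on Lgr5-high replicate 2, and Cxcl16 is above on both.

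The mean levels of marker lists of differentiated epithelium and of lymphocytes were also higher in the Flattop arrays. Over all genes, 0.902% passed as higher and 0.0135% as lower in limma. Of 8 goblet cell genes 5 rose (median difference 1.27), with a list mean of 11.49 to 11.98 over the Flattop and 9.32 to 10.45 over the Lgr5-high arrays. Of 6 Paneth cell genes 4 rose (3.10), with a list mean of 11.9 to 12.7 in Flattop and 8.53 to 10.05 in Lgr5-high arrays, and of 8 enterocyte genes 5 rose (2.99), with 10.2 to 11.1 in Flattop and 7.17 to 8.21 in Lgr5-high arrays. Lgr5-high replicate 5, the highest of its group for Ccl6, also had the highest goblet (10.45), Paneth (10.05) and enterocyte (8.21) list means of that group. Flattop replicate 3, the lowest of its group for Ccl6, had the lowest Paneth (11.9) and enterocyte (10.2) list means and the highest T cell list mean (10.03) of that group, but not the lowest goblet list mean (11.63, against 11.49 on replicate 4). Its pan-epithelial (9.60), enteroendocrine (9.83) and mast cell (5.68) list means were the lowest of the group too, so this was not particular to Paneth and enterocyte genes. On Lgr5-high replicate 5 the pan-epithelial list mean was the highest of its group (9.69). The enteroendocrine list mean (8.11) was not, and the mast cell list mean (4.01) was the lowest. Lgr5-high replicate 2, the lowest of its group for Ccl6, had the lowest enterocyte list mean (7.17) of that group, but neither the lowest goblet list mean (9.38, against 9.32 on replicate 3) nor the lowest Paneth list mean (8.65, against 8.53 on replicate 6). Of 9 T cell and intraepithelial lymphocyte genes 8 rose (median difference 4.91), with 7.72 to 10.03 in Flattop and 4.24 to 4.63 in Lgr5-high arrays. Within the groups this list ran against Ccl6 at both ends. The T cell list mean was lowest on Flattop replicate 1 (7.72) and Lgr5-high replicate 5 (4.24), the highest of their groups for Ccl6. It was highest on Flattop replicate 3 (10.03) and Lgr5-high replicate 2 (4.63), the lowest of their groups for Ccl6. Every Lgr5-high mean of this list lay under the median of all values (4.70), so the order on that side may be one of background. Of 5 mast cell genes 3 rose, with 5.68 to 6.50 in Flattop and 4.01 to 4.46 in Lgr5-high arrays. Those 3 were Mcpt1, Mcpt2 and Kit, and Kit was bright in both groups, at 8.42 in Flattop and 7.42 in Lgr5-high arrays. Cpa3 (3.93 and 3.59) and Fcer1a (3.35 and 3.05), as Flattop and Lgr5-high means, did not pass and were under the median of all values. The part of these cell types in the chemokine differences was not tested.

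Markers of myeloid cells, a known source of Ccl6 and Ccl9, were measured too. Of 14 macrophage, dendritic cell and granulocyte genes 0 passed in limma. At an unadjusted p under 0.05, 2 were higher and 1 lower, against 1326 and 843 of all 22180 genes. The median difference of the 14 genes was -0.10. Their mean lay between 4.52 and 4.70 on the Flattop arrays and between 4.30 and 4.68 on the Lgr5-high arrays. Among them Csf1r (4.35 and 4.43), Adgre1 (3.99 and 4.31), C1qb (4.49 and 4.42) and C1qc (4.16 and 4.32), given as Flattop and Lgr5-high means, were under the median of all values. In all, 5 of the 14 Flattop and 3 of the 14 Lgr5-high means lay above it, among them C1qa (5.25 and 5.36), the lysosomal protein Cd68 (5.93 and 6.39) and the eosinophil lectin Siglecf (5.83 and 5.35). Cx3cr1, the receptor of mononuclear phagocytes named above and not in this list, was also above it (6.42 and 6.96). The part of myeloid cells in the values of Ccl6 and Ccl9 was not tested. The lysozyme Lyz2 averaged 4.86 in Flattop and 3.82 in Lgr5-high arrays, with 1.04 for the difference (limma adjusted p = 0.236) and groups that did not overlap. In limma 0 of 5 B and plasma cell genes passed (1 was higher at an unadjusted p under 0.05), as did 0 of 6 fibroblast and smooth muscle genes (0 unadjusted), 0 of 4 endothelial genes (1 lower unadjusted) and 0 of 5 tuft cell genes (0 unadjusted). Of 6 enteroendocrine genes 4 rose, with a list mean of 9.83 to 10.58 in Flattop and 7.96 to 8.52 in Lgr5-high arrays. Of 6 stem cell genes 0 passed in limma, with 4 lower by unadjusted p.

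**Figure D5:**
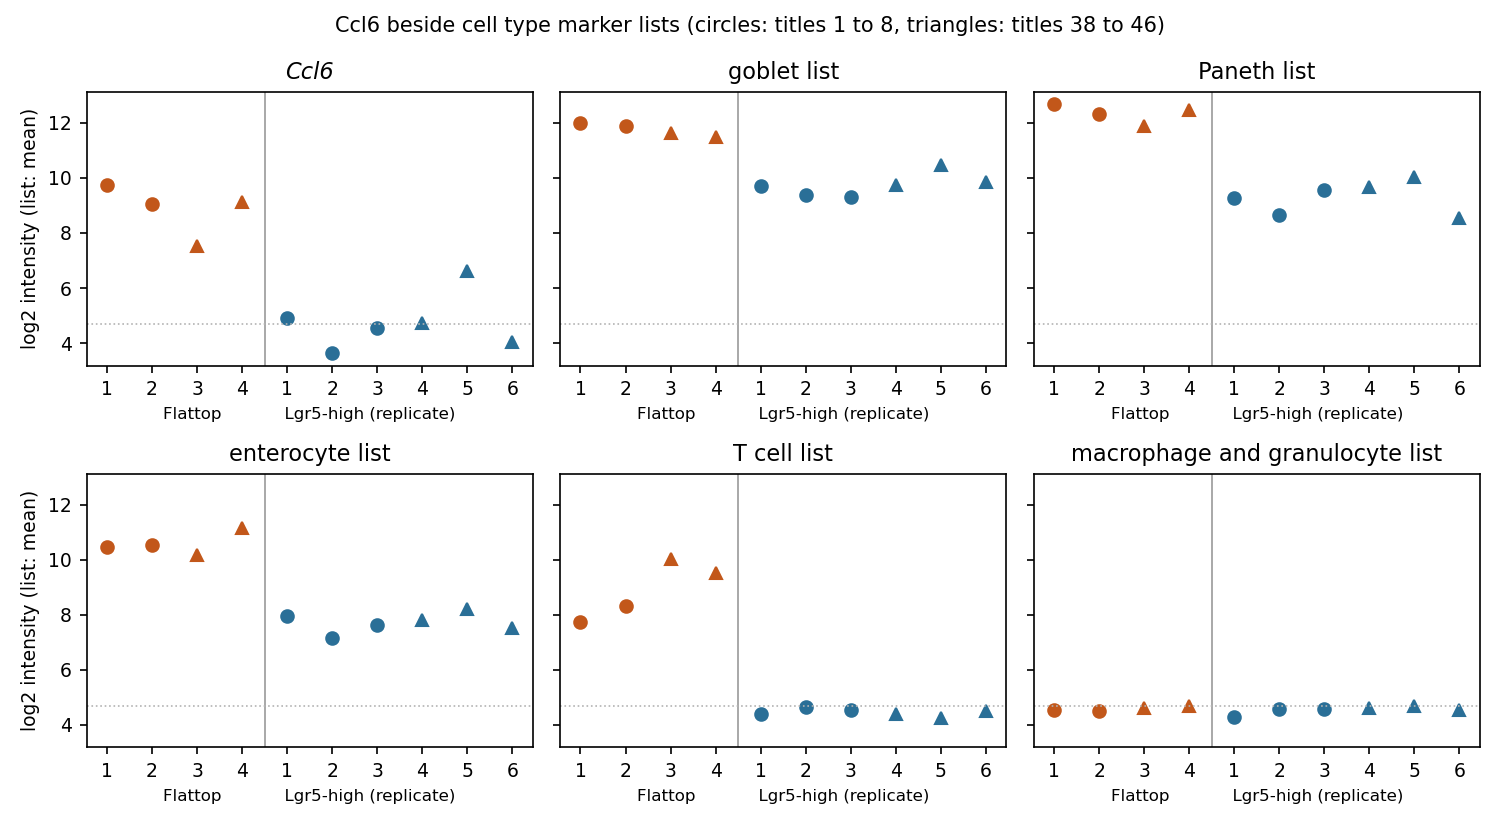
Log2 intensity of Ccl6 and the mean log2 intensity of 5 marker lists on each of the 4 Flattop (left of the line) and 6 Lgr5-high arrays; circles are titles 1 to 8, triangles titles 38 to 46, and the dotted line is the median of all values (4.70). Ccl6 and the goblet, Paneth, enterocyte and T cell lists are higher on every Flattop array, while the macrophage and granulocyte list stays between 4.30 and 4.70 in both groups.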

How the data were processed

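Amplified RNA of sorted mouse intestinal cells was hybridised to 10 arrays, 4 Flattop and 6 Lgr5-high, grouped by the source named in the labels. Each deposited value is the log2 intensity of a probe set, made by the authors with robust multi-array averaging in oligo 1.38.0, per the submitters' processing notes. The order of their steps is not given in the sources used here. There were 41345 probe sets, of which 23521 had 1 gene symbol, 1814 several and 16010 none listed; 23328 matched RefSeq genes of GRCm38.p6 by Entrez number. Each of 22180 genes kept its probe set of highest mean, with no filter on dim probe sets.

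The test was that of limma 3.58.1 in R 4.3.3, with lmFit and eBayes, two-sided, for Flattop minus Lgr5-high. P-values were adjusted over all genes by Benjamini-Hochberg and called at 0.05. The method was tested on simulated data. Members and lists were chosen with earlier results of these data known. Genes were named by rule: the members, their receptors and proteases, members of the other lists that passed or had the smallest p, genome neighbours, the 3 genes of nearest pattern for members with an SD of at least 1, and markers as needed. Some symbols listed but without a single-symbol probe set here (Ccl19, Ccl21a, Nfkb1) were not analysed here. Promoters were aligned with Biopython 1.88 and plots drawn with matplotlib 3.10.9. Alternatives changed the normalisation, filter, prior, weights, blocks, title ranges, arrays, probe sets and threshold. The number of arrays limits the precision.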

Additional observations from a re-analysis of the deposited data

Results flagged for a closer look

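Among 40 group values of 20 genes examined for single arrays far from the rest of their group, 3 stood apart. Chance gives about 1 in 20 of such group values, so 3 of 40 is not far from that share. Ccl25 on Flattop replicate 3 (9.024) lay far below the other Flattop arrays, which read 9.90 to 9.94. Ccl28 on Lgr5-high replicate 2 (6.469) lay far below the other Lgr5-high arrays, at 7.47 to 7.87. The protease gene Adam17 on Lgr5-high replicate 5 (5.968) lay below the other Lgr5-high arrays, the next of which read 6.31.

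Cxcl16 was lower on both Flattop arrays than on all 3 Lgr5-high arrays within titles 1 to 8, and higher on both than on all 3 within titles 38 to 46. The difference between the ranges was 0.756, and its interaction did not pass (limma adjusted p = 0.625).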

How the results depend on the processing

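Ccl6 was called as higher in 22 of 23 alternatives, with differences of 3.17 to 5.03. The exception was titles 38 to 46 alone, with 3.17 and a count of 0 members past the threshold, in a fit with fewer arrays. The other 6 members were called in 0 of 23 alternatives each, and 0 members were lower in any. Signs of members near 0 reversed within titles 1 to 8 for Ccl20 (0.048) and Ccl28 (0.24), within titles 38 to 46 for Ccl25 (-0.006) and Cxcl16 (0.29), and without Flattop replicate 3 and Lgr5-high replicate 5 together for Ccl28 (0.018). Leaving out single arrays gave -0.19 to 0.048 for Cxcl16. The count of receptors, 1 in the analysis as reported, was 0 or 1 when single arrays were left out. It was 0 with the replicate block, within either title range, with all probe sets tested and without both arrays named above. The cause was not tested. With replicate numbers as a block, Ccl6 differed by 4.40 (limma adjusted p = 0.0324), Cxcr6 by 1.99 (limma adjusted p = 0.0502), and 57 of all genes passed, against 203 without it. The labels do not say that the numbers pair the arrays. Deviations of same-numbered arrays from their group means correlated at 0.30, -0.21, -0.01 and 0.03. Those of Flattop replicate 2 and Lgr5-high replicate 1 also correlated at 0.30, so these few values cannot settle whether arrays are paired. Ccl5 and Xcl1 passed in all 23 alternatives. Without detection calls, values near the array median have no known distance from background.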

Other observations

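Signalling chemokine receptors outside the 7 named above were also measured. Of 10 measured receptors of this kind, 0 passed in limma (at an unadjusted p under 0.05, 0 were higher and 2 lower), with a median difference of -0.21. The smallest p-values were those of Ccr7, which guides lymphocytes to lymph nodes (5.13 ± 0.44 on Flattop and 5.75 ± 0.18 on Lgr5-high arrays, SD, n = 4 and 6, limma adjusted p = 0.265), and of Xcr1, the receptor of Xcl1 on dendritic cells (4.24 ± 0.30 on Flattop and 4.89 ± 0.39 on Lgr5-high arrays, limma adjusted p = 0.322). Xcl1 itself was 5.43 higher in the Flattop arrays. Of 5 atypical receptors, which bind chemokines without the usual signalling, 0 passed in limma (at an unadjusted p under 0.05, 0 in either direction), with a median difference of 0.08.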
